A study of Zea mays with 6 samples.

Results

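The LEAFY homologs of maize, zfl1 and zfl2, were followed in young ears of ra3;tpp4 double mutants and of wild type. They are a pair of duplicate genes, chosen by name with no threshold on a measured value, though earlier results of these data were known, and they make up 2 of the 46272 gene IDs in the deposited counts. The gene ID Zm00001d026231 stands for zfl1 and Zm00001d002449 for zfl2. These names come from the rule that chose the genes. The deposited files carry IDs only, without names, positions or lengths, so the names were not checked against the data.

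RNA-seq counts were available from ears 2 to 3 mm long, with 3 libraries from field-grown ra3;tpp4 plants and 3 from field-grown wild-type (WT) plants of the inbred line B73. The ramosa3 gene, ra3, keeps ear branch meristems determinate and codes for a phosphatase of trehalose-6-phosphate, and tpp4 codes for a related enzyme. The sources used here give neither the mutant alleles nor the genetic background of the double mutant. No ID could be tied to ra3, to tpp4 or to a marker of ear tissue, so the genotype and tissue labels were not checked through expression. The replicates are called biological, but the number of ears or plants behind each library is not stated.

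LEAFY-type proteins are plant-specific transcription factors that give a meristem floral identity. In Arabidopsis, LEAFY switches on floral genes of the MADS-box family, among them APETALA1 and AGAMOUS. In maize, plants that lack both zfl copies have disturbed floral organs and altered inflorescence architecture, including fewer tassel branches, and genetic evidence has linked zfl2 in particular to the arrangement of kernel rows on the ear. The comparison asks whether either copy, or the balance between the copies, differs between ears labelled ra3;tpp4 and ears labelled WT.

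Both copies were read deeply in every library. Summed over gene IDs, a library held 19291332 to 25254164 counts in ra3;tpp4 and 25815984 to 26752609 in WT. On these totals zfl1 had 1469 to 1915 counts per ra3;tpp4 library and 2085 to 2393 per WT library. The zfl2 copy had 2328 to 2732 counts per ra3;tpp4 library and 2695 to 3312 per WT library. Levels are given as CPM, the counts of a gene per 1000000 counts over all gene rows of its library. By mean CPM in all 6 libraries, zfl1 stood above 84.3% and zfl2 above 90.1% of the 21127 IDs that passed the filter on low counts. Both genes were thus among the more heavily read ones in ears of either genotype, on a scale that is not per length.

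The zfl1 copy had somewhat lower values in the mutant, a difference that did not pass the test. It stood at 79.6, 67.7 and 76.1 CPM in ra3;tpp4 replicates 1, 2 and 3, against 80.6, 89.4 and 87.4 CPM in WT replicates 1, 2 and 3. On this scale the mutant libraries did not overlap the WT libraries and were lower, but the nearest pair, mutant replicate 1 and WT replicate 1, had overlapping 95% Wilson intervals of 76.1 to 83.2 and 77.2 to 84.1 CPM. These intervals cover counting error only. After TMM scaling, which corrects library sizes for differences in composition, the order of that pair turned, with 80.7 CPM in mutant replicate 1 against 79.0 CPM in WT replicate 1, and the genotypes overlapped. A separation of the genotypes is common in these libraries: 19.9% of tested IDs showed it in CPM over gene rows and 19.6% after TMM scaling.

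The mean level of zfl1 was 74.5 ± 6.11 CPM in ra3;tpp4 and 85.8 ± 4.65 CPM in WT (SD, n = 3 each). The exact permutation test on these CPM, two-sided, gave p = 0.1, which is the smallest that 3 libraries against 3 can reach. On CPM after TMM scaling, where the genotypes overlapped, the same exact permutation test gave p = 0.2. In the fit across all IDs the log2 change, mutant over WT, was -0.18 (SE 0.0851, 95% interval -0.37 to 0.0068). This is a fold of 0.882, with an interval of 0.774 to 1.005. The edgeR quasi-likelihood test, a model fitted across all IDs, gave an adjusted p of 0.391 (Benjamini-Hochberg over all IDs). In the mutant libraries, a fall of more than 22.6% and a rise of more than 0.472% lay outside the interval. In whole-ear RNA, fewer cells that transcribe the gene and less RNA in each such cell cannot be told apart.

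The zfl2 copy overlapped between the genotypes on both scales. It stood at 114, 92.2 and 121 CPM in ra3;tpp4 replicates 1, 2 and 3, against 104, 120 and 128 CPM in WT replicates 1, 2 and 3. Replicates 1 and 3 of the mutant thus lay inside the WT range, and replicate 2 lay below every WT library. The mean was 109 ± 14.99 CPM in ra3;tpp4 and 117 ± 12.2 CPM in WT (SD, n = 3 each). The fitted log2 change was -0.08 (SE 0.121, 95% interval -0.36 to 0.19), a fold of 0.943 with an interval of 0.779 to 1.14 (edgeR adjusted p = 0.821). Without ra3;tpp4 replicate 2 the log2 change of zfl2 was 0.03 (95% interval -0.17 to 0.23), and that of zfl1 was -0.11 (95% interval -0.28 to 0.07). The sign for zfl2 therefore rests on that library, and 41.3% of the size of the zfl1 difference went with it. WT libraries moved the log2 changes too, to -0.02 for zfl2 without WT replicate 3 and -0.14 for zfl1 without WT replicate 2. Without WT replicate 1 both were larger in size, at -0.17 for zfl2 and -0.23 for zfl1.

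**Figure D1:**
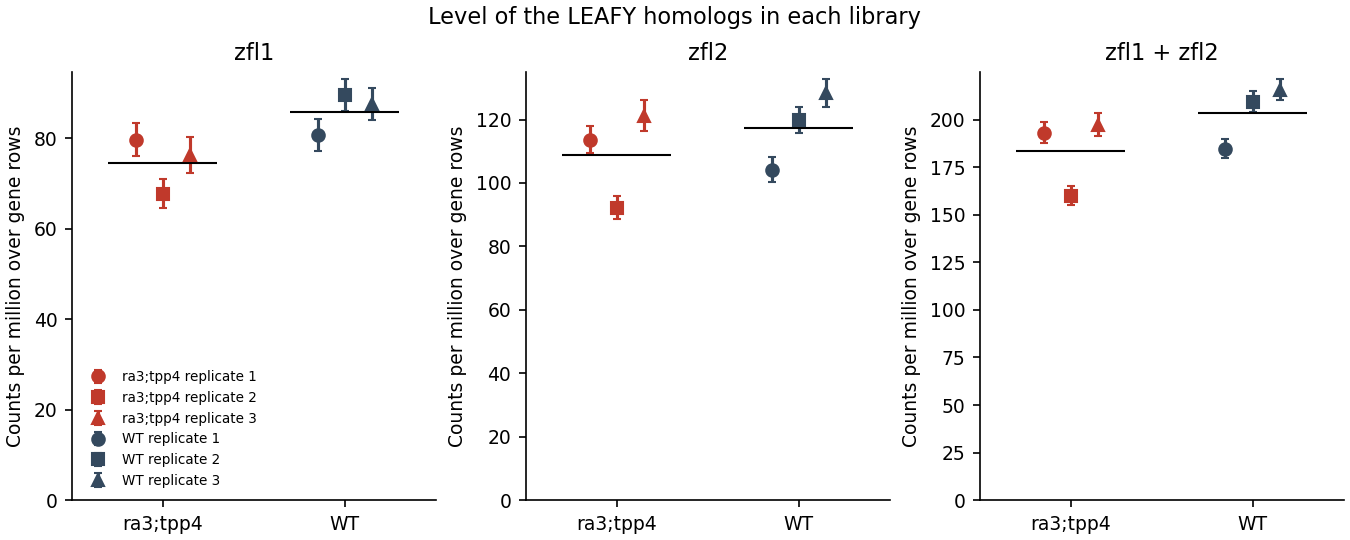
Level of zfl1, zfl2 and their sum in CPM over gene rows (vertical axes, from 0), with ra3;tpp4 libraries on the left and WT libraries on the right of each panel. Points are libraries with 95% Wilson intervals for counting error and horizontal lines are the means of 3 libraries; ra3;tpp4 replicate 2 is the lowest point in all 3 panels.

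Neither of the 2 copies was called between the genotypes by edgeR, DESeq2 or limma-voom, and 0 of the 2 had an unadjusted edgeR p under 0.05 (0.0574 for zfl1 and 0.501 for zfl2, from the fit across all IDs), against 13.4% of all tested IDs (2825 of 21127). By edgeR, 1.47% of all tested IDs were called (310 of 21127, edgeR adjusted p under 0.05; 58 to 471 when 1 library was left out). With 2 genes and a background this low, a count of 0 says little by itself, and the intervals above carry the information. Both intervals leave out a 2-fold change in either direction. The difference in zfl1 was larger in size than that of 83.7% of the 5382 IDs whose mean CPM lay within a factor of 2 of its own, where the median size was 0.08 on the log2 scale. For zfl2 the matching figure was 53.3% of 4162 IDs, close to the middle. Among those IDs of like level, 1.38% were called beside zfl1 and 1.59% beside zfl2.

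The summed output of the pair followed the same pattern. It came to 193, 160 and 197 CPM in ra3;tpp4 replicates 1, 2 and 3, against 185, 209 and 216 CPM in WT replicates 1, 2 and 3. The genotypes overlapped, since mutant replicates 1 and 3 exceeded WT replicate 1. The mean was 183 ± 20.5 CPM in ra3;tpp4 and 203 ± 16.3 CPM in WT (SD, n = 3 each), a difference of -19.8 CPM (exact permutation test, two-sided, p = 0.3). Without ra3;tpp4 replicate 2 the difference was -8.04 CPM (exact permutation test, two-sided, p = 0.6, where 0.2 is the smallest possible).

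Of all reads given to the pair, zfl2 took the larger part in all 6 libraries. The ratio of zfl2 to zfl1 counts was 1.43, 1.36 and 1.59 in ra3;tpp4 replicates 1, 2 and 3, against 1.29, 1.34 and 1.47 in WT replicates 1, 2 and 3. These are read counts, not levels per length, because the files give no transcript lengths, so they do not show that zfl2 had more transcript molecules. Lengths cancel when the ratio is compared between libraries, and so does library scaling.

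The share of zfl1 in the summed counts did not separate the genotypes. It was 41.2%, 42.3% and 38.6% in ra3;tpp4 replicates 1, 2 and 3, against 43.6%, 42.7% and 40.5% in WT replicates 1, 2 and 3. The mutant range thus began below the WT range and reached into it. The mean share was 40.7% ± 1.92 in ra3;tpp4 and 42.3% ± 1.59 in WT (SD, n = 3 each), a difference of -1.58 percentage points (exact permutation test, two-sided, p = 0.4). The difference was -2.39 percentage points without ra3;tpp4 replicate 2 and -0.52 without ra3;tpp4 replicate 3, and it was -0.92 without WT replicate 1 and -2.46 without WT replicate 3. As a log2 ratio of zfl1 to zfl2 the same comparison gave -0.54 ± 0.115 in ra3;tpp4 and -0.45 ± 0.0944 in WT (SD, n = 3 each). The difference in log2 ratio, -0.09, is also the difference between the responses of the copies, so no unequal response of zfl1 and zfl2 was detected with 3 libraries a genotype.

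The 95% Wilson intervals of the single shares, for counting error only, ran from 37.1 to 40.2% in ra3;tpp4 replicate 3 and from 40.8 to 43.9% in ra3;tpp4 replicate 2, the lowest and the highest mutant shares. They ran from 39.3 to 41.8% in WT replicate 3 and from 42.2 to 45.0% in WT replicate 1, the lowest and the highest WT shares. In both genotypes the library numbered 3 had the lowest zfl1 share, but the numbers name libraries and are not known to pair them.

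**Figure D2:**
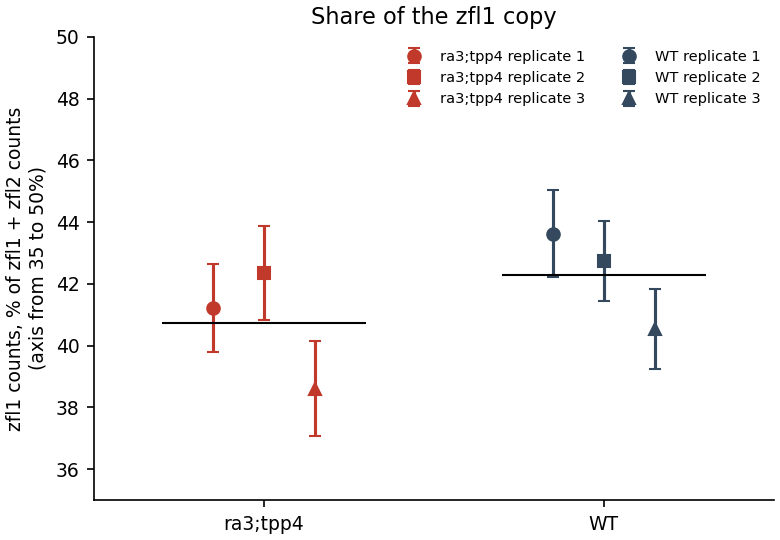
Share of zfl1 in the summed counts of zfl1 and zfl2 (vertical axis in percent, drawn from 35 to 50) for the ra3;tpp4 libraries on the left and the WT libraries on the right. Points are libraries with 95% Wilson intervals for counting error and horizontal lines are means of 3 libraries; the shares run from 38.6% to 42.3% in ra3;tpp4 and from 40.5% to 43.6% in WT, and the ranges overlap.

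The spread within a genotype was described for each copy, and the difference in spread between the copies was not tested. The SD of zfl1 was 8.21% of its mean in ra3;tpp4 and 5.42% in WT, and that of zfl2 was 13.8% in ra3;tpp4 and 10.4% in WT. Counting error alone would give about 2.43% in ra3;tpp4 and 2.11% in WT for zfl1, and 2.01% in ra3;tpp4 and 1.80% in WT for zfl2. On the log2 scale the SD within genotypes was 0.12 for zfl1, larger than in 68.1% of its IDs of like level, and 0.20 for zfl2, larger than in 91.8% of its IDs of like level. The median SD was 0.09 among the IDs of like level for either copy.

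**Figure D3:**
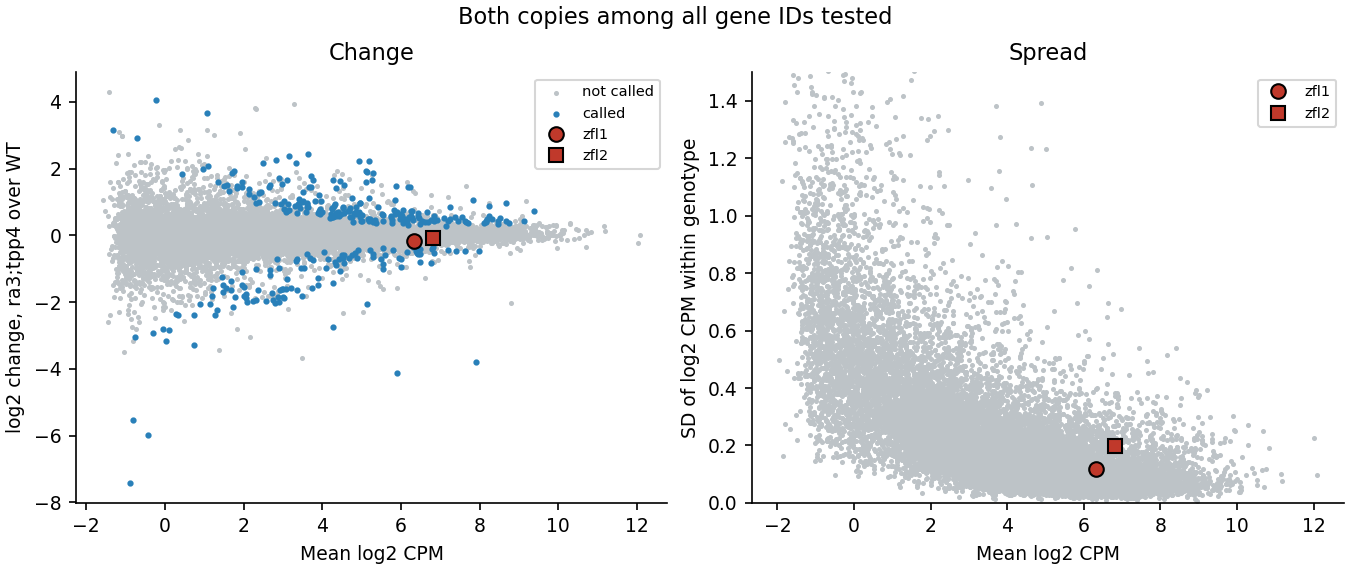
Both copies among the 21127 IDs tested. The left panel plots the log2 change of ra3;tpp4 over WT against the mean log2 CPM, with called IDs in blue and both copies near 0, and the right panel plots the SD of log2 CPM within genotypes against the mean log2 CPM, with zfl2 above most IDs of its level; 56 IDs with an SD above 1.5 lie outside the right panel.

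The lowest zfl2 library of each genotype, ra3;tpp4 replicate 2 and WT replicate 1, lay on the same side of a component of variation shared by many IDs. On the component with 37.2% of the variance in log2 CPM, ra3;tpp4 replicates 1, 2 and 3 scored 14.0, 49.3 and 14.2, against -24.1, -22.6 and -30.8 in WT replicates 1, 2 and 3. On the next, with 28.0%, the scores were 26.9, -31.3 and 33.3 in ra3;tpp4 replicates 1, 2 and 3, against -29.3, -0.631 and 0.999 in WT replicates 1, 2 and 3. The libraries at the negative end of this second axis thus held the least zfl2 of their genotypes. They also held the least zfl1, at 67.7 CPM in ra3;tpp4 replicate 2 and 80.6 CPM in WT replicate 1. What this component stands for, and its part in the values of either copy, was not tested.

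Duplicate genes can lose reads that fit both copies. Such reads go to HTSeq's line for non-unique alignments, which held 15.3%, 12.9% and 11.05% of all records in ra3;tpp4 replicates 1, 2 and 3, against 21.4%, 19.3% and 22.2% in WT replicates 1, 2 and 3. The mutant libraries were lower without overlap. How many of these alignments belong to zfl1 or zfl2 is not recorded in the counts, and their part in the zfl values was not tested.

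Over the 6 libraries the copies varied together to some degree. Both copies share the depth and scaling of each library. Pearson's r of log2 CPM between zfl1 and zfl2 was 0.81, as a description over 6 libraries of 2 genotypes. Of 18325 IDs compared by this measure, 794 others lay closer to zfl1 than zfl2 did, and 1071 lay closer to zfl2 than zfl1 did. The IDs most like zfl1 were Zm00001d009719 (r = 0.995) and Zm00001d009765 (r = 0.994). Their log2 changes were -0.07 (edgeR adjusted p = 0.705) for Zm00001d009719 and -0.28 (edgeR adjusted p = 0.279) for Zm00001d009765. The IDs most like zfl2 were Zm00001d038283 (r = 0.999) and Zm00001d003166 (r = 0.995), with log2 changes of -0.14 (edgeR adjusted p = 0.836) for Zm00001d038283 and -0.05 (edgeR adjusted p = 0.867) for Zm00001d003166. The files do not say what these IDs encode. With 6 libraries, very high r values arise among so many IDs, and 75 IDs reached 0.95 with zfl1 and 113 with zfl2.

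IDs with numbers near those of the zfl copies were examined for calls in the same comparison. Within 25 numbers of zfl1 the files hold 36 IDs, of which 21 were tested, and edgeR called 0 of them, the smallest adjusted p being 0.0827. Before adjustment, 3 of the 21, all with lower values, had an edgeR p under 0.05, a share near the 13.4% of all tested IDs. DESeq2, which called 846 of all 21127 IDs, called 1 of the 21, and limma-voom, which called 341, called 0. Their log2 changes ran from -0.36 to 0.20 with a median of 0.01, so the -0.18 of zfl1 lay inside that range. Within 25 numbers of zfl2 there are 42 IDs, of which 24 were tested, and edgeR called 0, the smallest adjusted p being 0.0524. Before adjustment, 2 of the 24 with lower and 2 with higher values had an edgeR p under 0.05, again a share near that of all tested IDs, and DESeq2 called 1 and limma-voom 0. Their log2 changes ran from -0.90 to 0.45 with a median of -0.02. The lowest of these was Zm00001d002448, the ID numbered just before zfl2, with 20, 11 and 8 counts in ra3;tpp4 replicates 1, 2 and 3, against 19, 34 and 31 in WT replicates 1, 2 and 3. Its log2 change of -0.90 (SE 0.466, edgeR adjusted p = 0.451) rests on few counts, and the genotypes overlapped at mutant replicate 1. The ID numbered just after zfl2, Zm00001d002450, had 2306 to 3127 raw counts in ra3;tpp4 libraries and 3204 to 3581 in WT libraries. The mutant libraries held fewer counts in total. With TMM scaling the log2 change of Zm00001d002450 was -0.06 (SE 0.0660, edgeR adjusted p = 0.768). Whether IDs with adjoining numbers lie side by side in the genome was not checked.

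The partners and targets of LEAFY-type proteins could not be followed. Of 39 symbols listed for this purpose, which covered MADS-box floral genes, ramosa genes and meristem regulators, 29 were found in the RefSeq gene table for Zm-B73-REFERENCE-NAM-5.0, and 0 were paired there with an ID in the files. No values are given for them.

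**Figure D4:**
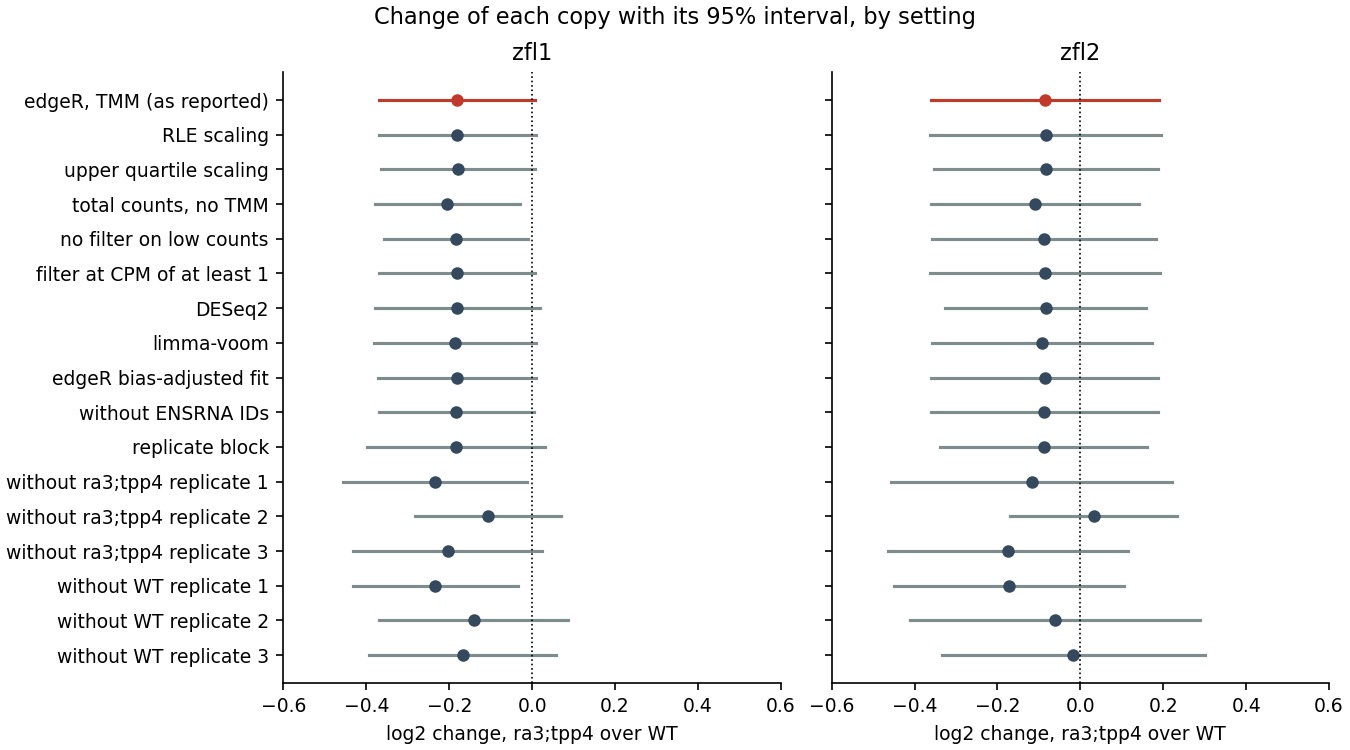
Log2 change of zfl1 (left) and zfl2 (right), ra3;tpp4 over WT, on the horizontal axes, for the reported fit in red and 16 alternatives in grey. Points are estimates and lines 95% intervals; zfl1 lies between -0.23 and -0.11 in all 16 alternatives, and zfl2 lies between -0.17 and 0.03, above 0 only without ra3;tpp4 replicate 2.

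The zfl1 difference was below 0 in every setting plotted. Its log2 change lay between -0.20 and -0.18 in the 10 alternatives that kept all libraries, and between -0.23 and -0.11 when 1 library was left out. The adjusted p ranged from 0.284 to 0.627 over the 16 alternatives, and the unadjusted p was under 0.05 in 4 of them. For zfl2 the adjusted p ranged from 0.652 to 0.977. Neither copy was called in any of the 16.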

How the data were processed

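The authors deposited unnormalized counts by gene ID, in a separate file for each of 6 libraries. The submitters' processing notes name Trimmomatic 0.36, HISAT2 2.1.0, HTSeq and, as build, B73 RefGen_v4. Which annotation release, strand setting and parameters were used is not stated there. The 5 closing HTSeq lines, which hold records without a gene, stayed out of library sizes and tests.

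From these counts, edgeR 4.0.16 (R 4.3.3; filterByExpr, TMM, robust quasi-likelihood F test) was fitted on 21127 IDs with genotype as the only term and WT as the reference, and p-values were adjusted over all of them. A call needs an adjusted p under 0.05. Standard errors were taken as the absolute log2 change over the root of its F value. The test was tried on simulated data first. Sums and shares were compared by exact permutation tests (scipy 1.17.1). Likeness used log2 CPM with a prior count of 2, over IDs whose mean log2 CPM reached 1. The 2 most alike IDs per copy and the IDs numbered next to zfl2 are named. The deposited counts hold no ID numbered directly before or after zfl1. Alternatives used DESeq2 1.42.0, limma-voom (limma 3.58.1), other scalings and filters, a replicate block and leaving out each library. Chi-square per degree of freedom between libraries of a genotype was 5.39 to 16.6, so none was a copy of another. The genes and lists were chosen with earlier results of these data known. The series and its labels do not say that replicates were separate plants. The tests therefore rest on variation between these libraries, which may not be variation between plants.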

Additional observations from a re-analysis of the deposited data

How the results depend on the processing

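Of 16 alternatives, zfl1 kept its direction in all 16 and zfl2 in 15; leaving out each library gave log2 changes of -0.23 to -0.11 for zfl1 and -0.17 to 0.032 for zfl2, the positive value being that without ra3;tpp4 replicate 2. The sum kept its direction in 9 of 9 alternatives other than the replicate block (-29.1 to -8.04 CPM with 1 library left out) and the zfl1 share in 8 of 8 (-2.46 without WT replicate 3 to -0.52 percentage points without ra3;tpp4 replicate 3). The count of all calls, 310, was 846 in DESeq2 and 511 with no filter on low counts. It was 144, 471 and 331 without ra3;tpp4 replicate 1, 2 and 3, and 132, 96 and 58 without WT replicate 1, 2 and 3; the cause of these moves was not tested. Same-numbered libraries were not treated as pairs (correlations of deviations -0.181, -0.123 and 0.154, with 2 of 6 libraries closest to their own number). These values cannot show how the libraries were collected or prepared. With the replicate block the log2 changes were -0.18 (zfl1) and -0.09 (zfl2), and 290 IDs were called; a mean difference of the sum or share is the same with the block by construction. Counting error of a copy was 1.80% to 2.43% of its level per library, and the effect of depth or of more libraries was not tested.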
